A study of Mus musculus with 12 samples.

Results

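Zscan4c, Zscan4d, Zscan4f, Tcstv1, Tcstv3 and Zfp352 are transcripts of the mouse 2-cell embryo, and their levels were read in 12 RNA-seq libraries of mouse embryonic stem cells in which Foxd3, a forkhead transcription factor, had been deleted or overexpressed. The genes were taken by name, so no measured value chose them, but they were chosen with earlier results of these data known. Of the 6 names, 5 had a row in the 3 deposited tables, which held 19996 genes (SL deletion and overexpression) or 19718 genes (2i). Tcstv1 had no row under its symbol or its Ensembl identifier and was not analysed here. The row used for Zscan4f carried a second, joined gene name beside it.

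The tables compared 6 groups of 2 libraries each. SL Foxd3-/- cells were Foxd3fl/fl;Cre-ER cells given 4-hydroxytamoxifen (2 µM, 3 days) in medium with 15% fetal bovine serum and leukemia inhibitory factor (LIF) on irradiated fibroblast feeders, and SL Foxd3fl/fl cells were the same line untreated. The 2i libraries labelled Foxd3-/- came from the same floxed line given the same tamoxifen treatment in serum-free N2B27 with PD0325901 (0.4 µM, a MEK inhibitor), CHIR99021 (3 µM, a GSK3 inhibitor) and LIF, with untreated 2i Foxd3fl/fl cells beside them; no feeders were named for 2i. The tetON Foxd3 cells, which carry a doxycycline-driven Foxd3, and WT cells grew without feeders in 15% serum with LIF, each with doxycycline at 1 µg/µl for 3 days. The untreated deletion controls carried Cre-ER and the floxed allele too, and no group had tamoxifen without the floxed allele. No tetON Foxd3 group went without doxycycline. Raised Foxd3 and any other difference between tetON Foxd3 and WT cells therefore cannot be told apart. Below, rose and fell name the direction of a difference between groups. No label stated that the libraries of a group were grown as separate cultures, and each p-value measures the spread between these libraries, which may be technical. An exact permutation test of 2 against 2 libraries cannot reach significance, so the tests below borrow spread across all genes of a table.

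In mouse embryonic stem cell cultures a few cells at a time pass through a state that resembles the 2-cell embryo, and these cells switch on Zscan4, Tcstv, Zfp352 and a set of other genes made at the first activation of the embryonic genome. The Zscan4 proteins carry a SCAN domain and zinc fingers and are known for the upkeep of telomeres and of genome stability in these cells. In earlier work Zscan4c was the main copy in stem cells and Zscan4d the main copy in 2-cell embryos. The Tcstv proteins have also been linked to telomere length, and Zfp352 encodes a zinc finger protein. Libraries were made from bulk RNA, so fewer cells in the 2-cell-like state and less RNA per such cell cannot be told apart.

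The Zscan4 copies lie in a tandem cluster on chromosome 7 (GRCm38, GENCODE annotation): Zscan4c at chr7:11005745-11010547 on the plus strand, Zscan4d at chr7:11161374-11166159 on the minus strand and Zscan4f at chr7:11397915-11402318 on the plus strand. Tcstv3 lies at chr13:120316878-120318178 (plus strand), Tcstv1 at chr13:119893388-119894785 (minus strand) and Zfp352 at chr4:90218820-90225702 (plus strand). All are annotated as protein coding. The first 150 coding bases of the 3 Zscan4 copies, from the GENCODE transcripts, are shown because they carry the limit on every Zscan4 value below. Capitals mark the 4 positions at which the copies are not all alike.
Zscan4c, chr7:11006556-11006705, plus strand: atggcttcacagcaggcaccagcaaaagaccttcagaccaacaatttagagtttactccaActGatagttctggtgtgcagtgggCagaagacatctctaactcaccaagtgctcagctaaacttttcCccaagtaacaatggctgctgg
Zscan4d, chr7:11165199-11165348, minus strand: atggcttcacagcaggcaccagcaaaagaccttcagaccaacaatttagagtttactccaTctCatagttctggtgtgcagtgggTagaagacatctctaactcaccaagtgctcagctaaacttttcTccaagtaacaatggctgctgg
Zscan4f, chr7:11398749-11398898, plus strand: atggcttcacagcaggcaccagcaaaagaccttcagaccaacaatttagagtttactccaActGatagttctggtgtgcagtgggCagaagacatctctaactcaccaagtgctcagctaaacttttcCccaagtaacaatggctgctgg
At those positions Zscan4c and Zscan4f read the same and Zscan4d differed from both. Over the whole coding sequence of 1518 bases, Zscan4c and Zscan4f differed at 6 bases (99.6% identity), and Zscan4d differed from each of them at 35 bases (97.7% identity).

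How far a read could be placed on 1 copy was measured on the annotated transcripts. Of all stretches of 50 bases in the Zscan4c transcript, 85.5% also occurred in a transcript of another gene, against 95.3% for Zscan4f and 49.6% for Zscan4d. At 100 bases the shares were 72.8% for Zscan4c, 89.5% for Zscan4f and 29.6% for Zscan4d. Tcstv3 shared 31.4% of its 50-base stretches with other genes, among them Tcstv1 (17.9%), and 7.8% of its 100-base stretches. Zfp352 shared 7.1% and 0.6%. Neither the read length nor the handling of reads that map to several places is given in the sources, so the split of FPKM between Zscan4 copies is uncertain and the copies are not separate evidence of one another. RNA from the copies without a row, Zscan4a and the Zscan4 pseudogenes, could also be counted in these rows.

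The promoters are shown because the Zscan4 copies were called lower together under overexpression, below. Zfp352 was too low in FPKM to enter that test, and a fit that held all 4 genes called none of them. They are the 250 bases before the RefSeq start (GRCm38.p6), and capitals mark TATAAA in the Zscan4 copies and TAATCC in Zfp352.
Zscan4c, chr7:11005495-11005744, plus strand: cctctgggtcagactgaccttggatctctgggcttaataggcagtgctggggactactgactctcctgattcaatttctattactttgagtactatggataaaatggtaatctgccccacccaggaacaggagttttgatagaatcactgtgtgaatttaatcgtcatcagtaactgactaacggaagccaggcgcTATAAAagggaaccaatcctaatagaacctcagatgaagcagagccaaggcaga
Zscan4d, chr7:11166149-11166398, minus strand: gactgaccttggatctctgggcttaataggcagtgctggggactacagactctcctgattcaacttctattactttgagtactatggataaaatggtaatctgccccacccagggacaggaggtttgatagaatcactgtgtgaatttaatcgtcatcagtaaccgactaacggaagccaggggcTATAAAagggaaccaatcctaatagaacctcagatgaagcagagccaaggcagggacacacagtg
Zscan4f, chr7:11397665-11397914, plus strand: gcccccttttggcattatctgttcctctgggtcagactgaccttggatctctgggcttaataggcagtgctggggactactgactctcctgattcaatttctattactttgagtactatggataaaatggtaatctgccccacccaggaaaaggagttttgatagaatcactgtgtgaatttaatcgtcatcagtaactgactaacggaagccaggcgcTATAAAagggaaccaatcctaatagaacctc
Zfp352, chr4:90218570-90218819, plus strand: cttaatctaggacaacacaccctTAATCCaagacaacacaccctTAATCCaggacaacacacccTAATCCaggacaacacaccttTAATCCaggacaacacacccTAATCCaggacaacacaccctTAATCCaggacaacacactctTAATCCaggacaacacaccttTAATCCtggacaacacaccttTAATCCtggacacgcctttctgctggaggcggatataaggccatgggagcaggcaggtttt
The Zscan4c and Zscan4f windows differed at 1 of 227 aligned bases (99.6% identity). Zscan4d differed from Zscan4c at 7 of 239 aligned bases (97.1%). The letters TATAAA, the TATA box core, occurred once in each of the 3 Zscan4 windows and in 12.4% of the 32851 promoters of the same length, on either strand. TAATCC, a core letter string of bicoid-class homeodomain proteins, occurred 9 times in the Zfp352 window, in a repeated unit, in no Zscan4 window and in 6.25% of promoters. The forkhead core TGTTTAC occurred in none of these 4 windows and in 3.17% of promoters, and the published ZSCAN4 site TGCACAC in none and in 3.67%. The printed TATAAA and TAATCC matches lie in different windows and do not overlap. A match or its absence describes the letters in this window only.

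The cultures carried the RNA of stem cells: all 8 stem cell markers examined were above 0 in every library, and their summed level was between 2240 and 3769 FPKM (fragments scaled to transcript length and library size). These sums differed between groups in 2 of the comparisons, and their part in the results was not tested. In 2i they were 2959 and 2901 FPKM in libraries labelled Foxd3-/-, against 2506 and 2383 FPKM in Foxd3fl/fl libraries. There limma called 4 of 8 markers higher, near the 47.9% of all genes called higher. Adjusted p-values from the authors' deposited table called 4 higher and 2 lower, where 20.6% of all genes were called higher and 20.2% lower. Foxd3 itself measured 1.62 and 1.83 FPKM in SL Foxd3-/- libraries, against 4.53 and 4.81 FPKM in SL Foxd3fl/fl libraries. In 2i it measured 2.07 and 2.45 FPKM in libraries labelled Foxd3-/-, against 2.51 and 2.42 FPKM in Foxd3fl/fl libraries, so the ranges overlapped and FPKM did not separate the labels. In the authors' deposited table, its mean reads in 2i were even higher in the libraries labelled Foxd3-/- (376.17) than in the Foxd3fl/fl libraries (221.19). For this reason the 2i groups keep the wording of their labels below. Under doxycycline Foxd3 measured 53.2 and 50.1 FPKM in tetON Foxd3 libraries, against 10.6 and 14.1 FPKM in WT libraries. The summed mean reads over all genes in the authors' deposited tables were 24278900 and 27062500 in the 2i groups and between 52789800 and 54096100 in the other groups, and the depth of single libraries is unknown.

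The Zscan4 copies were highest in SL Foxd3-/- cells and lowest in 2i Foxd3fl/fl cells. Zscan4f averaged 8.53 ± 3.39 FPKM in SL Foxd3-/-, 6.82 ± 1.99 in WT, 3.04 ± 0.65 in SL Foxd3fl/fl, 0.830 ± 0.380 in 2i labelled Foxd3-/-, 0.808 ± 0.081 in tetON Foxd3 and 0.0459 ± 0.0218 in 2i Foxd3fl/fl (SD, n = 2 each). Zscan4c ran in the same order. For Zscan4d the tetON Foxd3 mean (0.340 FPKM) stood above that of 2i labelled Foxd3-/- (0.276 FPKM), with overlapping ranges. For each copy the library ranges of SL Foxd3-/- and WT also overlapped, and every SL Foxd3fl/fl library lay below both. Tcstv3 was highest in SL Foxd3-/- (2.92 ± 1.16 FPKM), its WT and SL Foxd3fl/fl ranges overlapped, and it was listed at 0 in all libraries of 2i Foxd3fl/fl and tetON Foxd3. By FPKM, Zfp352 was scarce throughout: its highest group was WT at 0.258 ± 0.011 FPKM (SD, n = 2), and it was listed at 0 in both 2i Foxd3fl/fl libraries. Its mean reads in the authors' deposited table did not always give this order. In tetON Foxd3 they stood above those of Zscan4f (52.8 against 35.36), and in SL Foxd3-/- below (30.24 against 372.69). The 3 tables were normalized separately, so these orders across tables are descriptions without a test.

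**Figure D1:**
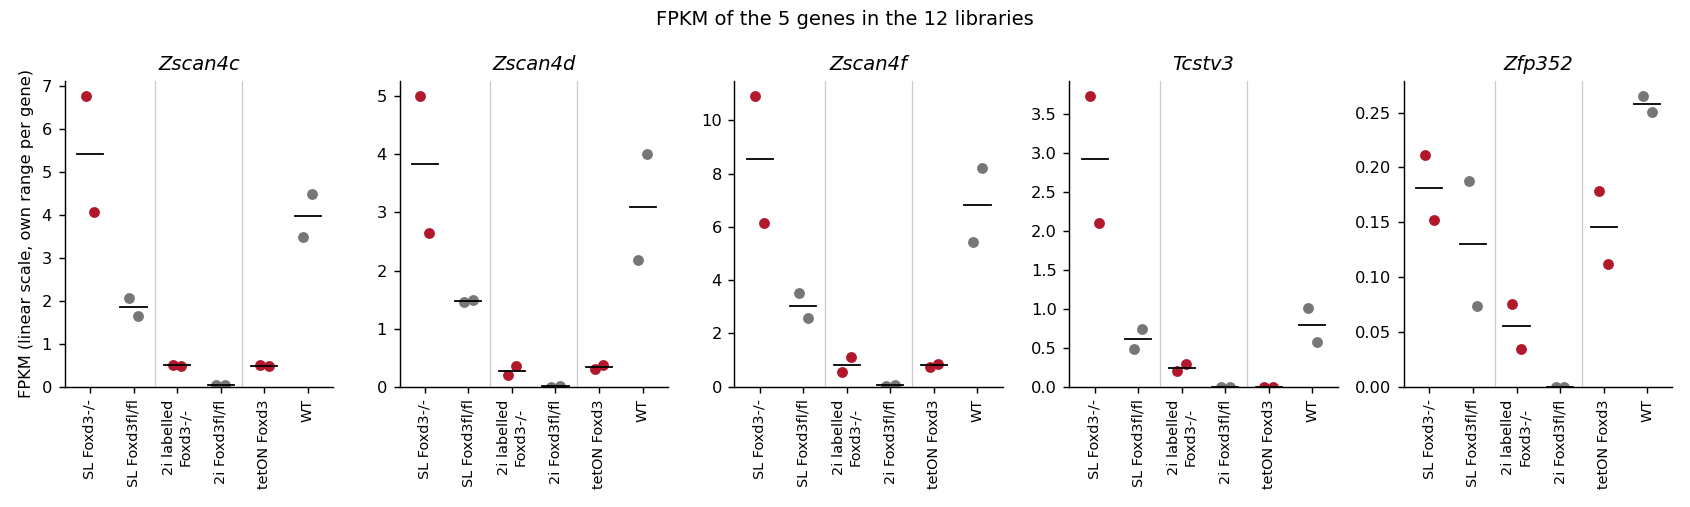
FPKM of the 5 genes (vertical axis, linear, with its own range in each panel) in the 12 libraries, by group (horizontal axis); points are single libraries, short lines group means, red points the cells with altered or labelled-altered Foxd3 and grey points their controls. Zscan4f reached 10.9 FPKM in SL Foxd3-/-, and no library exceeded 0.266 FPKM for Zfp352.

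Deletion of Foxd3 in SL was read first. Zscan4 and Tcstv3 levels were higher in both Foxd3-/- libraries than in both Foxd3fl/fl libraries, but none passed the test after adjustment for all genes. Zscan4c measured 6.78 and 4.06 FPKM in SL Foxd3-/- libraries, against 2.07 and 1.64 FPKM in SL Foxd3fl/fl libraries. Zscan4d measured 5.01 and 2.65 FPKM in SL Foxd3-/- libraries, against 1.46 and 1.49 FPKM in SL Foxd3fl/fl libraries. Zscan4f measured 10.9 and 6.13 FPKM in SL Foxd3-/- libraries, against 3.50 and 2.59 FPKM in SL Foxd3fl/fl libraries. For each copy the groups did not overlap, and the first Foxd3-/- library stood well above the second. The ratio of group means was 2.92 for Zscan4c, 2.60 for Zscan4d and 2.80 for Zscan4f. Tcstv3, the telomere-linked gene of chromosome 13, measured 3.74 and 2.10 FPKM in SL Foxd3-/- libraries, against 0.481 and 0.745 FPKM in SL Foxd3fl/fl libraries. Its groups did not overlap either, with a ratio of means of 4.76. Zfp352 measured 0.211 and 0.152 FPKM in SL Foxd3-/- libraries, against 0.187 and 0.0738 FPKM in SL Foxd3fl/fl libraries, and its groups overlapped.

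The test was limma with a mean-variance trend on log2(FPKM + 1) over all genes with a group mean of at least 1 FPKM, with Benjamini-Hochberg adjustment and a threshold of 0.05. The pseudocount of 1 FPKM makes these differences understate the change of low genes. In SL, 4 of the 5 genes passed the filter, Tcstv3 through its Foxd3-/- level alone, and 0 were called, where 1 of 12024 genes, the imprinted Peg10, was called higher (0.00832%) and 0 lower; at unadjusted p under 0.05, limma gave 730 genes higher and 367 lower. The log2 difference was 1.14 for Zscan4c (95% interval 0.58 to 1.70, adjusted p = 0.203), 0.92 for Zscan4d (0.32 to 1.52, adjusted p = 0.308), 1.20 for Zscan4f (0.56 to 1.83, adjusted p = 0.215) and 1.25 for Tcstv3 (0.67 to 1.83, adjusted p = 0.186). Zfp352 was below the filter, and a fit without it gave 0.06 (-0.10 to 0.23, adjusted p = 0.872, limma). The median difference of the 5 genes was 1.14, beside -0.01 over the genes tested and 0.004 over all genes of the fit without the filter. Groups did not overlap, in the higher direction, for 4 of the 5 genes and for 20.8% of all genes. The authors' deposited table gave Zscan4c 231.71 mean reads in Foxd3-/- and 62.67 in Foxd3fl/fl, and Tcstv3 38.29 and 10.24. After adjustment over all genes, the p-values in the authors' deposited table called 0 of the 5, where 0.44% of genes were called higher and 0.095% lower.

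1 library weighed on these values. All 5 genes were higher in the first than in the second SL Foxd3-/- library, as were 34 of 40 other 2-cell-like genes (85.0%) and 47.1% of all genes above 0 with a row in all 3 tables. Without the second library, the median difference of the 5 genes was 1.45. Without the first library it was 0.83. Levels of fibroblast genes, which feeders express, differed in the same direction: the 20 fibroblast markers summed to 997.5 and 878.6 FPKM in SL Foxd3-/- libraries, against 644.8 and 681.9 FPKM in SL Foxd3fl/fl libraries. None of the 20 was at 0, 16 of 16 tested had a positive difference and 0 were called by limma. At unadjusted p under 0.05 limma gave 12 of the 16 higher, where 730 of 12024 genes were higher in all. Adjusted p-values from the authors' deposited table called 5 of the 20 higher (Col1a2, Col5a1, Fbn1, Bgn and Thbs1), where 0.44% of all genes were called higher. The 7 trophectoderm markers summed to 298.5 and 254.7 FPKM in SL Foxd3-/- libraries, against 190.2 and 152.6 FPKM in SL Foxd3fl/fl libraries. The part of these markers in the results was not tested.

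**Figure D2:**
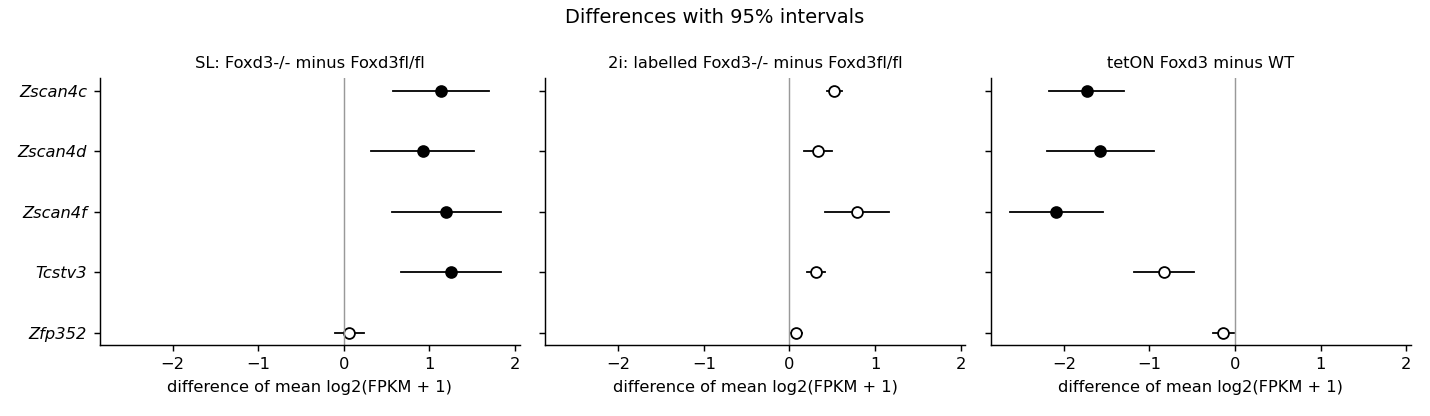
Difference of mean log2(FPKM + 1) between groups (horizontal axis) for the 5 genes (vertical axis) in the 3 comparisons, with 95% intervals from limma; filled points passed the filter of 1 FPKM and open points come from a fit without it. The 4 filled points in SL lie between 0.92 and 1.25, and the 3 filled points under overexpression between -2.09 and -1.57.

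In 2i all 5 genes were close to 0 in the floxed cells and higher in both libraries labelled Foxd3-/-, at levels below those of the SL table, which was normalized separately. Zscan4c measured 0.512 and 0.476 FPKM in 2i libraries labelled Foxd3-/-, against 0.0301 and 0.0471 FPKM in 2i Foxd3fl/fl libraries. Zscan4d measured 0.198 and 0.354 FPKM in 2i libraries labelled Foxd3-/-, against 0 and 0.0172 FPKM in 2i Foxd3fl/fl libraries. Zscan4f measured 0.562 and 1.10 FPKM in 2i libraries labelled Foxd3-/-, against 0.0305 and 0.0613 FPKM in 2i Foxd3fl/fl libraries. The groups of each copy stood apart, while the Zscan4f values of the libraries labelled Foxd3-/- were themselves well apart. Tcstv3 measured 0.202 and 0.288 FPKM and Zfp352 0.0752 and 0.0347 FPKM in 2i libraries labelled Foxd3-/-, and both were listed at 0 in the 2i Foxd3fl/fl libraries. These values rest on few reads: in the authors' deposited table, Zscan4f had a mean of 14.91 reads in libraries labelled Foxd3-/- and 1.22 in Foxd3fl/fl libraries, and Tcstv3 had 2.9 and 0.52. No fold is given against such a level.

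None of the 5 genes reached the filter of 1 FPKM in 2i. In the limma fit without the filter, 4 were called higher: Zscan4c by 0.52 (95% interval 0.44 to 0.61, adjusted p = 0.00156), Zscan4d by 0.34 (0.17 to 0.50, adjusted p = 0.0111), Zscan4f by 0.79 (0.42 to 1.16, adjusted p = 0.01) and Tcstv3 by 0.31 (0.21 to 0.42, adjusted p = 0.00432). Zfp352 differed by 0.08 (0.00 to 0.15, adjusted p = 0.0734, limma). Calls were common in this table: 35.9% of 16608 genes were called higher and 14.5% lower in the same fit. With the filter, limma called 5573 genes higher and 2291 lower; after median-of-ratios scaling the split was 3509 higher and 3921 lower. The median of all tested genes was 0.19 as deposited and -0.02 after that scaling, and the median of the 5 genes was 0.34 and 0.31. The 5 genes are not among those tested genes. Without the filter the median over 16608 genes was 0.085 as deposited. After the same adjustment, p-values in the authors' deposited table called 2 of the 5 higher (Zscan4d, adjusted p = 0.00822, and Zscan4f, adjusted p = 0.00496), where 20.6% of genes were called higher. Groups did not overlap, in the higher direction, for 5 of the 5 genes and for 52.2% of all genes. The fibroblast markers summed to 580.9 and 572.0 FPKM in 2i libraries labelled Foxd3-/-, against 490.3 and 481.8 FPKM in 2i Foxd3fl/fl libraries, and their part was not tested.

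The change in SL was set against the change in 2i in 1 limma fit of the 8 libraries of the floxed line, which compares differences within tables. Medium differed between these tables, and feeders were named for SL but not for 2i, so medium and feeders cannot be told apart. Of 4 genes tested, 1 was called, where 23.9% of 12497 genes were called in either direction, so the count is near the background. The called gene, Tcstv3, passed the filter through its SL Foxd3-/- level alone. Tcstv3 differed by 1.25 in SL and 0.31 in 2i, a gap of 0.94 on the log2(FPKM + 1) scale (95% interval 0.33 to 1.54, adjusted p = 0.0366, limma). With 1 library left out it was 0.63 to 1.24, and the call was lost for 6 of the 8 libraries (adjusted p between 0.0551 and 0.116). The gap was 0.62 for Zscan4c (0.01 to 1.22, adjusted p = 0.124), 0.58 for Zscan4d (-0.08 to 1.25, adjusted p = 0.171) and 0.41 for Zscan4f (-0.38 to 1.19, adjusted p = 0.411). These gaps depended on the pseudocount: with 0.1 FPKM the Zscan4c gap was -0.64, that of Zscan4d -0.51 and that of Zscan4f -1.20, and 0 genes of the 4 were called. The genes called over the table numbered 693 with a positive and 2294 with a negative gap, and 1342 and 1200 after median-of-ratios scaling.

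In the overexpression comparison the Zscan4 copies were lower in tetON Foxd3 than in WT libraries. Zscan4c measured 0.493 and 0.489 FPKM in tetON Foxd3 libraries, against 3.49 and 4.48 FPKM in WT libraries. Zscan4d measured 0.306 and 0.374 FPKM in tetON Foxd3 libraries, against 2.18 and 4.01 FPKM in WT libraries. Zscan4f measured 0.751 and 0.866 FPKM in tetON Foxd3 libraries, against 5.41 and 8.22 FPKM in WT libraries. The groups were far apart for each copy, and the tetON Foxd3 libraries differed less between themselves than the WT libraries did. WT means were 8.12 times the tetON Foxd3 means for Zscan4c, 9.08 times for Zscan4d and 8.43 times for Zscan4f. Tcstv3 was listed at 0 in both tetON Foxd3 libraries, against 1.01 and 0.570 FPKM in WT libraries. Zfp352 measured 0.179 and 0.112 FPKM in tetON Foxd3 libraries, against 0.266 and 0.250 FPKM in WT libraries, without overlap.

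The 3 Zscan4 copies passed the filter, only through their WT level, and limma called all 3 lower, where 1.65% of 11972 genes were called lower and 0.994% higher. Genes that passed through 1 group alone had to differ, so this count is a description. The log2 difference was -1.73 for Zscan4c (95% interval -2.17 to -1.30, adjusted p = 0.0204), -1.57 for Zscan4d (-2.20 to -0.95, adjusted p = 0.0478) and -2.09 for Zscan4f (-2.63 to -1.55, adjusted p = 0.0223). In the fit without the filter, limma called 0 of 17032 genes, with 1608 higher and 1624 lower at unadjusted p under 0.05, and the adjusted p was 0.0599 for Zscan4c, 0.0978 for Zscan4d and 0.0727 for Zscan4f. That fit gave -0.83 for Tcstv3 (-1.18 to -0.47, adjusted p = 0.0977) and -0.14 for Zfp352 (-0.26 to -0.01, adjusted p = 0.233). The median of the 5 genes was -1.57, beside 0.03 over the genes tested and 0.01 over all genes of the fit without the filter. With any 1 library left out, Zscan4f was still called by limma and Zscan4d was not (adjusted p between 0.0531 and 0.0865), and Zscan4c lost its call without either WT library (adjusted p = 0.0573 and 0.0576). The authors' deposited table gave Zscan4c 23.53 mean reads in tetON Foxd3 and 176.72 in WT, Zscan4f 35.36 and 286.84, and Tcstv3 1 and 20.09. After adjustment, p-values in the authors' deposited table called 4 of the 5 lower, where 2.59% of genes were called lower. The exception was Zfp352, with 52.8 mean reads in tetON Foxd3 and 51.84 in WT in the authors' deposited table, so its reads and its FPKM did not give the same picture. Groups did not overlap, in the lower direction, for 5 of the 5 genes and for 22.7% of all genes. The stem cell markers summed to 3052 and 2546 FPKM in tetON Foxd3 libraries, against 3769 and 3633 FPKM in WT libraries, with 2 of 8 called lower by limma, and their part was not tested. The fibroblast markers were low here, at 191.3 and 197.1 FPKM in tetON Foxd3 libraries and 195.8 and 167.8 FPKM in WT libraries, and Col3a1, Lum and Fap were at 0 in all 4.

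In the 8 libraries grown in serum the share of each copy lay in a narrow range. The summed FPKM of Zscan4c, Zscan4d and Zscan4f was 22.7 and 12.8 in SL Foxd3-/- libraries, against 7.03 and 5.72 in SL Foxd3fl/fl libraries. Under overexpression it was 1.55 and 1.73 in tetON Foxd3 libraries, against 11.1 and 16.7 in WT libraries. Zscan4f took 48.1% and 47.7% of the sum in SL Foxd3-/- libraries, against 49.8% and 45.2% in SL Foxd3fl/fl libraries. It took 48.4% and 50.1% in tetON Foxd3 libraries, against 48.8% and 49.2% in WT libraries. Zscan4d, the copy most easily told from the others, took between 19.7% and 26.0% in those 8 libraries, and Zscan4c between 26.8% and 31.8%. In the 2i libraries labelled Foxd3-/-, at sums of 1.27 and 1.93 FPKM, Zscan4f took 44.2% and 57.0%, Zscan4c 40.3% and 24.7%, and Zscan4d 15.6% and 18.3%, so shares differed more between these libraries. Shares in 2i Foxd3fl/fl libraries rest on sums of 0.0606 and 0.126 FPKM and are not read. How reads were divided between the copies was not tested.

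**Figure D3:**
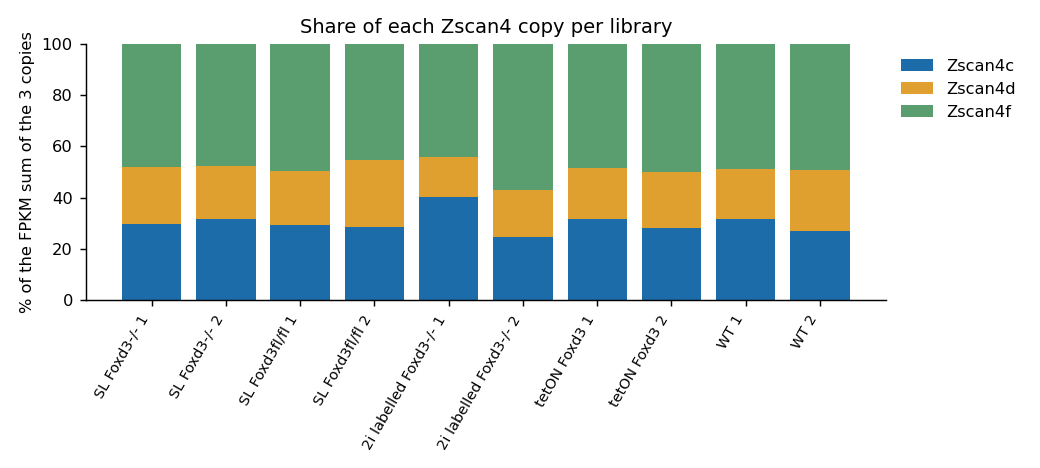
Share (percent, vertical axis from 0) of Zscan4c, Zscan4d and Zscan4f in their summed FPKM in 10 libraries (horizontal axis); the 2i Foxd3fl/fl libraries, with sums of at most 0.126 FPKM, are left out. Zscan4f takes between 44.2% and 57.0% in each library drawn.

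The 2 other Zscan4 rows, Zscan4b and Zscan4e, which share 90.3% and 91.6% of their 50-base stretches with other genes, lay beside these values. Zscan4e measured 3.70 and 1.85 FPKM in SL Foxd3-/- libraries, against 1.15 and 1.08 FPKM in SL Foxd3fl/fl libraries (log2 difference 0.79, adjusted p = 0.405, limma). It measured 0.260 and 0.256 FPKM in tetON Foxd3 libraries, against 1.96 and 3.26 FPKM in WT libraries, and fell by 1.50 on the log2 scale (adjusted p = 0.0421, limma). Zscan4e and Zscan4b passed the overexpression filter through WT alone, and the fit without the filter called 0 of 17032 genes. Zscan4b differed by 0.72 in SL (adjusted p = 0.433) and by -1.19 under overexpression (adjusted p = 0.0558, limma). In SL Zscan4b passed the filter through its Foxd3-/- level alone.

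Genes known to promote the 2-cell-like state had rows for 6 of 8 names; Dux, the homeobox gene that activates the 2-cell transcripts, had none and was not analysed here. In SL 0 of 6 were called by limma (2 higher at unadjusted p under 0.05) or in the authors' deposited table, with a median difference of 0.34. Tbx3, a T-box transcription factor, measured 16.6 and 9.60 FPKM in SL Foxd3-/- libraries, against 4.90 and 3.40 FPKM in SL Foxd3fl/fl libraries, without overlap (log2 difference 1.42, adjusted p = 0.186, limma). Under overexpression 4 of 6 fell and 0 rose by limma, with a median of -0.91, where 1.65% of all genes were called lower and 0.994% higher. Dppa3, a maternal factor that protects methylation in the zygote, fell to 2.02 and 2.02 FPKM in tetON Foxd3 libraries, against 9.95 and 11.5 FPKM in WT libraries (log2 difference -1.95, adjusted p = 0.0145, limma). Dppa2, which binds and opens promoters of 2-cell genes with Dppa4, fell to 14.7 and 18.6 FPKM in tetON Foxd3 libraries, against 42.3 and 44.8 FPKM in WT libraries (-1.35, adjusted p = 0.0221, limma). Dppa4 (-0.78, adjusted p = 0.0295) and Tbx3 (-1.04, adjusted p = 0.0177) also fell by limma. Dppa4 and Dppa2 are expressed well beyond 2-cell-like cells. In 2i 5 of 6 rose and Smarca5, a chromatin remodeler, fell, in a table where 47.9% of genes were called higher and 19.7% lower; Dppa2 measured 16.7 and 20.2 FPKM in libraries labelled Foxd3-/-, against 5.59 and 5.40 FPKM in Foxd3fl/fl libraries. Of 25 genes known to repress the state, chromatin regulators such as Kdm1a, Trim28 and Setdb1 among them, limma called 0 in SL and 0 under overexpression, with medians of 0.02 and 0.00. In 2i limma called 11 of the 25 higher and 4 lower, where 47.9% of all genes were called higher and 19.7% lower. Adjusted p-values from the authors' deposited table called 8 of the 25 higher and 11 lower in 2i, where 20.6% and 20.2% of all genes were called. At unadjusted p under 0.05 limma gave 1 of the 25 higher in SL and 3 higher under overexpression, and adjusted p-values from the authors' deposited table called 0 in both.

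A wider set of 2-cell-like genes named 57 genes, of which 42 had rows (41 in 2i). In SL limma tested 21 and called 0, with 19 above 0 and a median of 0.92, beside -0.01 over all genes tested. At unadjusted p under 0.05 limma gave 18 of the 21 higher, where 730 of 12024 genes were higher in all. Several of the 21, Pramel7 among them, passed the filter through their Foxd3-/- level alone. Such genes had to be higher, so these counts and this median are descriptions. Adjusted p-values from the authors' deposited table called 1 higher, Gm13119, where 0.44% of all genes were called higher. Calcoco2, an autophagy receptor, measured 60.3 and 27.6 FPKM in SL Foxd3-/- libraries, against 10.4 and 6.58 FPKM in SL Foxd3fl/fl libraries (2.17, adjusted p = 0.169, limma). Pramel7, a leucine-rich repeat protein of the naive embryo, measured 7.68 and 2.54 FPKM in SL Foxd3-/- libraries, against 0.218 and 0.102 FPKM in SL Foxd3fl/fl libraries (2.26, adjusted p = 0.18, limma). Gm20767 (0.92) and Gm2016 (1.85) followed, each with adjusted p = 0.186 by limma.

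Under overexpression limma tested 19 of the wider set, 13 of which passed the filter through WT alone, and called 10 lower and 0 higher, with a median of -1.15; of all genes tested 1.65% were called lower. Pramel7 fell to 1.05 and 1.41 FPKM in tetON Foxd3 libraries, against 11.4 and 10.2 FPKM in WT libraries (log2 difference -2.41, adjusted p = 0.0118, limma). Gm20767 and AF067061, neighbours of Tcstv3 on chromosome 13, fell by 1.63 (adjusted p = 0.0185, limma) and by 1.50 (adjusted p = 0.0261, limma), and Gm4340 by 1.50 (adjusted p = 0.0261, limma). In the fit without a filter 0 genes of the table were called. Adjusted p-values from the authors' deposited table called 19 of 42 lower and 0 higher, where 2.59% of all genes were called lower. In 2i limma tested 6 and called 4 higher and 1 lower, where 47.9% of all genes were called higher and 19.7% lower. Pramel7, among those called higher, averaged 2.11 FPKM in libraries labelled Foxd3-/- and 0.0311 FPKM in Foxd3fl/fl libraries. It passed the filter through the libraries labelled Foxd3-/- alone and had to be higher, so this count is a description. Calcoco2 rose to 162.8 and 165.2 FPKM in libraries labelled Foxd3-/-, against 21.2 and 27.6 FPKM in Foxd3fl/fl libraries, Pramel6, Pramel7 and Naaladl1 rose too, and Cpne9 fell by 0.50 on the log2 scale (adjusted p = 0.00241, limma).

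The SL and overexpression comparisons share no library. Among genes with a row in all 3 tables and a value above 0 in both comparisons, 4 of the 5 genes were higher in both SL Foxd3-/- libraries and lower in both tetON Foxd3 libraries than in every control library of the same table. So were 29 of 40 genes of the wider set (72.5%) and 1141 of 16617 genes in all (6.9%). The exception among the 5 was Zfp352. The others include Zscan4c, Zscan4d and Zscan4f, which share sequence and are not separate evidence of one another. The wider set also holds families of related genes. Genes and lists were chosen with earlier results of these data known, so these counts are descriptions.

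**Figure D4:**
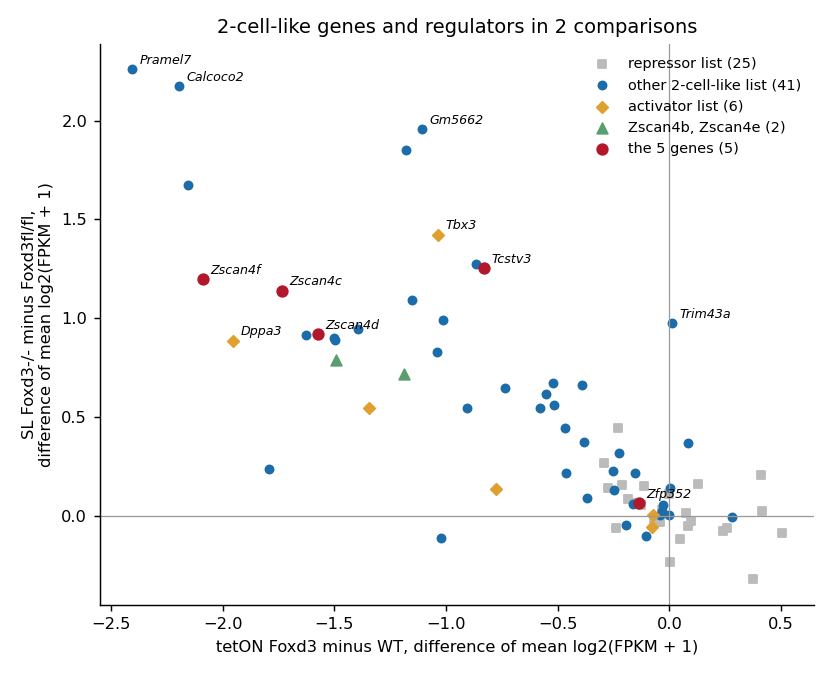
Difference of mean log2(FPKM + 1) for tetON Foxd3 minus WT (horizontal axis) and for SL Foxd3-/- minus Foxd3fl/fl (vertical axis), without a filter on low values; each point is 1 gene of the list named in the legend, with the number drawn. The Zscan4 copies and Tcstv3 lie at upper left, Zfp352 close to the origin, and the repressors near 0 on both axes.

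Genes with the most similar pattern were ranked by Pearson r to the mean of the 5 standardised genes over the 12 libraries, after the mean of each table was subtracted, among 10558 genes tested in all 3 tables. The first 8 were Amt (glycine cleavage, r = 0.976), Dcaf17 (0.976), Ctnnal1 (0.969), Pramel7 (0.969), Sin3b (a corepressor scaffold, 0.968), Vangl1 (planar cell polarity, 0.967), Hiat1 (0.964) and Ptges (prostaglandin synthesis, 0.954). The median r of all genes ranked was 0.049 and the 99th percentile 0.874. Among the 5 genes themselves r to this mean ran between 0.846 for Zfp352 and 0.995 for Zscan4c; each gene is part of this mean and the Zscan4 copies share sequence, so high values are built in. The 12 points are 6 groups of 2 libraries in 3 tables, so r describes the pattern over groups. Ctnnal1, at far higher levels than Zscan4, averaged 56.4 FPKM in SL Foxd3-/- and 26.7 in SL Foxd3fl/fl, and 15.5 FPKM in tetON Foxd3 and 33.1 in WT. Foxd3, the gene deleted or overexpressed, had r = -0.918, so this value in part restates the SL and overexpression comparisons. In 2i its FPKM did not separate the labels.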

How the data were processed

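Polyadenylated RNA of 12 mouse embryonic stem cell libraries was sequenced, per the labels' protocols. The submitters' processing notes name the builds GRCm38 and mm10 and, without version or role, DESeq2, Cufflinks, TopHat2, FastQC and SAMtools. The authors deposited, per the file headers, 1 table per comparison with FPKM for each library, and for each group the mean reads, a scaled signal that is not whole counts. Per the file headers, the authors also deposited a signed fold and an unadjusted p-value per gene. The medium of a deletion table was taken from its name.

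From these FPKM values, log2(FPKM + 1) was fitted per table with limma 3.58.1 (R 4.3.3), with a mean-variance trend, over genes with a group mean of at least 1 FPKM, and p-values were adjusted by Benjamini-Hochberg over all genes tested, at a threshold of 0.05. The authors' deposited p-values were adjusted the same way. Alternatives were a pseudocount of 0.1, no filter, median-of-ratios scaling, a replicate block, leaving out each library and the authors' p-values. Stretches of 50 and 100 bases were compared between GENCODE M21 transcripts, and promoters came from RefSeq (GRCm38.p6). The genes, lists and tests were chosen with earlier results of these data known. All 6 genes named were reported on, with relatives, up to 4 genes per list and comparison by smallest limma p, and the 8 nearest patterns; Gm13119, Peg10, Smarca5, Cpne9, Naaladl1 and Ctnnal1 were described after their values were seen, as were the markers at 0. The labels give equal replicate numbers across groups no shared source.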

Additional observations from a re-analysis of the deposited data

Results flagged for a closer look

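By the test between media, the log2(FPKM + 1) difference of Tcstv3 was 0.94 larger in SL than in 2i (adjusted p = 0.0366 by limma's test of the difference itself). The difference was 1.25 in SL and 0.31 in 2i. Every labelled Foxd3-/- library stood above every Foxd3fl/fl library in both media. The same held for 20.8% of all genes in SL and 52.2% in 2i. Tcstv3 was listed at 0 in both 2i Foxd3fl/fl libraries. Across the alternatives its gap was positive, and the call was lost with a pseudocount of 0.1 (0.28, adjusted p = 0.703) and without the filter (adjusted p = 0.0666). It was also lost without the first SL Foxd3-/- library (0.63, adjusted p = 0.0551), the first SL Foxd3fl/fl library (0.82, adjusted p = 0.0624) or any 2i library (0.89 to 0.99, adjusted p between 0.0987 and 0.116). In this fit 23.9% of all genes were called, so 1 of 4 genes tested is near that share, and Tcstv3 passed the filter through its SL Foxd3-/- level alone.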

How the results depend on the processing

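Within SL, 2i and overexpression no difference changed sign in the limma fits that held the gene; genes below the filter, such as Zfp352, were in few of these fits. The calls changed. In SL, where 0 of the 4 tested genes and 1 gene in all were called, leaving out 1 library gave 0 to 4 of these genes and 1 to 313 genes in all, and the authors' p-values gave 107 genes in all. In 2i, where none passed the filter and the median of the 5 genes was 0.34, the fit without the filter called 4 (8371 genes in all), a pseudocount of 0.1 without the filter (chosen after seeing the data) called 5 (8543 in all) and the authors' p-values called 2 (8051 in all). The 2i median was 1.77 with a pseudocount of 0.1, with or without the filter, and 0.27 to 0.42 with 1 library left out, when 0 to 1 were called. Under overexpression, where 3 genes and 316 in all were called at a median of -1.57, no filter gave 0 and 0, the added setting 0 and 47, and 1 library left out 1 to 2 and 42 to 342. The authors' p-values called 909 there, and the median was -2.80 with a pseudocount of 0.1, with or without the filter. For the difference between media, where 1 was called, a pseudocount of 0.1 gave 0, no filter 0 and 1 library left out 0 to 3; the gaps of Zscan4c (-0.64), Zscan4d (-0.51) and Zscan4f (-1.20) were reversed with the pseudocount of 0.1. The cause of these changes was not tested. Where 1 library was left out, the lone library was assumed to vary like the other group.

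With the replicate number as a block, limma called 4 of the genes and 1997 in all in SL, 2473 in all under overexpression, and 2 of the 4 tested genes for the difference between media, where 1414 genes in all had a positive and 3928 a negative gap among 12497 tested. Deviations of same-numbered libraries correlated at 0.605 in SL, 0.596 under overexpression and -0.054 in 2i, over 2 pairs each. The labels give equal numbers no shared source, so the numbers are not taken as a pairing. Whether same-numbered libraries were handled together was not tested. With 2 libraries a group, and depth known only as group means, low values such as those in 2i are imprecise.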
